A study of Rattus norvegicus with 7 samples.

Results

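The expressed genes of newborn rat ventricular cardiomyocytes transfected with cel-miR-67, a miRNA of the nematode Caenorhabditis elegans, were described from 1 library, which was chosen by its label out of 7. All 17141 genes listed for it were used, of which 15195 were nuclear protein-coding genes and 26 lay in the mitochondrial genome. The cells came from the ventricles of wild-type Wistar rats at postnatal day 0, received the synthetic miRNA at 25 nM with Lipofectamine RNAiMAX, and were harvested for total RNA 72 h after transfection. Atria had been removed, the cells that stayed unattached after a period on plastic had been collected as mostly cardiomyocytes, and the culture medium held fetal bovine serum. The study transfected 6 human miRNAs in the same way, 1 library each, to look for pathways shared by miRNAs that make cardiomyocytes divide. No label names this library as the control, but the ratios that the authors deposited have it as their denominator. How many animals were pooled is not given in the sources used here.

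Levels are RPKM, reads scaled for the length of the gene and the size of the library, so that genes of unlike length can be set side by side. The reads behind the values, worked out from the RPKM, summed to 24836246 in this library and to between 22616067 and 31963293 across the 7 libraries. There is 1 library and hence no replicate, no test and no p-value. Intervals are exact 95% Poisson intervals of the read number, or exact (Clopper-Pearson) 95% intervals for shares and ratios. They cover counting error only, and reads copied by PCR are not independent molecules. For genes with no read the level that 3 reads would give is stated, which is 0.0662 RPKM for a gene of 2 kb.

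Cardiomyocytes contract through sarcomeres, in which myosin pulls on actin and troponin and tropomyosin make the pull depend on calcium released from the sarcoplasmic reticulum. In rodents the days around birth bring a set of well-known switches. Beta myosin heavy chain gives way to the alpha form and slow skeletal troponin I to the cardiac form, fatty acids take over from glucose and lactate as the main fuel, and most cardiomyocytes leave the cell cycle.

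Of the 15195 nuclear protein-coding genes, 11282 (74.2%) stood at 1 RPKM or more, 4892 (32.2%) at 10 or more, 494 (3.25%) at 100 or more and 16 at 1000 or more. Their median was 4.71 RPKM, the 25th percentile was 0.930 and the 75th 13.6 RPKM, and 135 genes had no read. Expression was concentrated in few genes: the 10 highest held 11.2% of the summed RPKM of nuclear protein-coding genes, the 100 highest 29.2%, and 420 genes held 50%. Over all gene types, 12315 of 17141 genes reached 1 RPKM.

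The highest nuclear gene was Actc1, the cardiac alpha actin of the thin filament, at 7073 RPKM (interval 7044 to 7101), which was 2.27% of the nuclear protein-coding sum. Next came Myl2, the ventricular regulatory light chain of myosin, at 6838 RPKM (6789 to 6888). Eef1a1, the elongation factor of protein synthesis, stood at 2769 RPKM, and Ankrd1, a stretch-responsive regulator that binds titin, at 2753 RPKM. Tnnc1 and Tnnt2, the calcium-binding and tropomyosin-binding subunits of cardiac troponin, reached 2580 and 2433 RPKM. Nppa, the atrial natriuretic peptide, was ninth in the ranking at 1860 RPKM, directly above Atp5b, the catalytic subunit of ATP synthase, at 1688 RPKM. The other genes above 1000 RPKM included Myl3, Myh6, Myh7, Myl9, Gapdh and several that the files name only by a clone or locus. Those were AC115371.1 at 4571 RPKM, AC130940.1 at 2214 RPKM and LOC100911372 at 1117 RPKM.

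Among the 30 highest nuclear protein-coding genes, 11 belonged to the contractile lists, 5 were cytosolic ribosomal proteins, 2 were subunits of the respiratory chain or ATP synthase, and 6 had only a clone or locus name. Of those 6, AABR07042359.1 and AABR07042397.1 each had the same 37016 reads. Among the 100 highest, ribosomal proteins were the larger class, with 27 genes against 18 contractile ones. The 63 listed contractile and sarcomere-associated genes, non-muscle actins and myosins included, held 11.4% of the nuclear protein-coding RPKM sum. The 92 ribosomal protein genes held 7.94% and the 78 entries with symbols of nuclear-encoded respiratory subunits, second entries of a gene included, 4.95%. Counted in reads instead of RPKM the order of leading genes differs, because long genes collect more reads. Actc1 was still first with 238789 reads, but Myh6 (178664) and Myh7 (164659) followed, and Myl2, whose gene length is 480 bases, was sixth with 74427 reads.

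**Figure D1:**
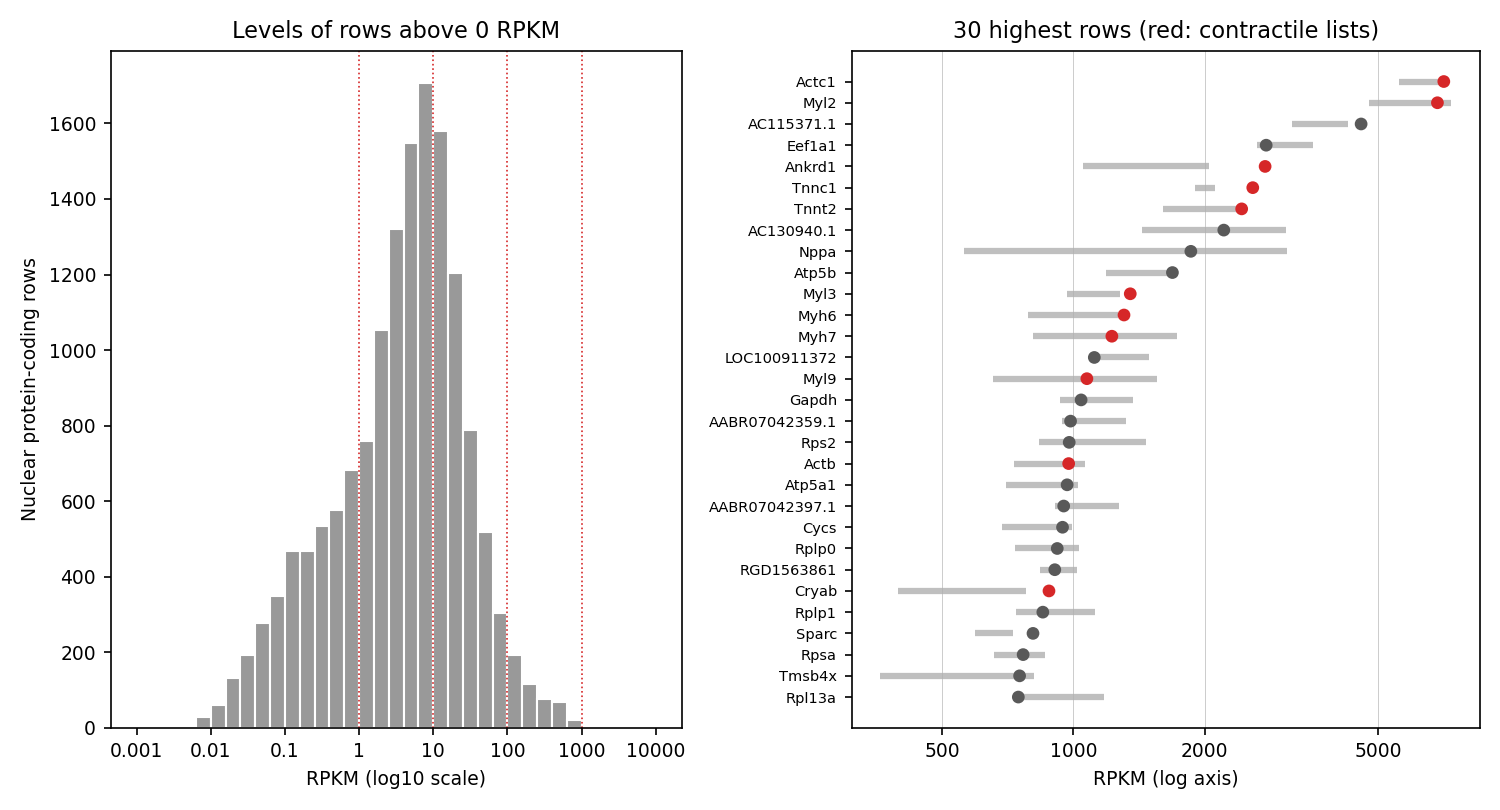
Left, number of nuclear protein-coding genes by RPKM on a log scale (genes at 0 left out; dotted lines at 1, 10, 100 and 1000 RPKM). Right, RPKM on a log axis of the 30 highest in the cel-miR-67 library (points; red for the contractile lists), with the range of the other 6 libraries as grey bars. Actc1 and Myl2 stand apart at the top, at 7073 and 6838 RPKM.

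Mitochondrially encoded RNA took 41.0% of all reads (interval 40.99 to 41.03) and 53.1% of the RPKM sum. Most of it was ribosomal: the longer mitochondrial rRNA, AY172581.24, alone held 34.7% of reads, the shorter one, AY172581.9, 1.98%. A single tRNA, AY172581.19, was listed at 84301 RPKM, while the other 10 mitochondrial tRNAs lay between 0.639 and 362 RPKM. That tRNA is 69 bases long and had 131892 reads, and whether reads of a neighbouring transcript were counted to it was not tested. The 13 mitochondrial mRNAs, all of which encode subunits of the respiratory chain or ATP synthase, took 3.84% of reads.

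Mitochondrial mRNAs are cut from long shared precursors, yet their levels spread widely. Mt-co1, the catalytic subunit of cytochrome oxidase, reached 18554 RPKM, and Mt-cox3 and Mt-co2, the other mitochondrial subunits of that enzyme, 5817 and 4111 RPKM. Complex I subunits were lower, from Mt-nd6 at 1159 RPKM down to Mt-nd2 at 231 RPKM, so Mt-co1 was 80.4-fold above Mt-nd2. Mt-nd6 is read from the opposite strand to Mt-nd5 and its neighbours, and without a stated strand setting reads of both strands cannot be told apart. Mt-atp8 and Mt-atp6, which lie in the same transcript and overlap, stood at 2590 and 944 RPKM. The order of the first 4 mRNAs (Mt-co1, Mt-cox3, Mt-co2, Mt-atp8) was the same in each of the other 6 libraries.

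**Figure D2:**
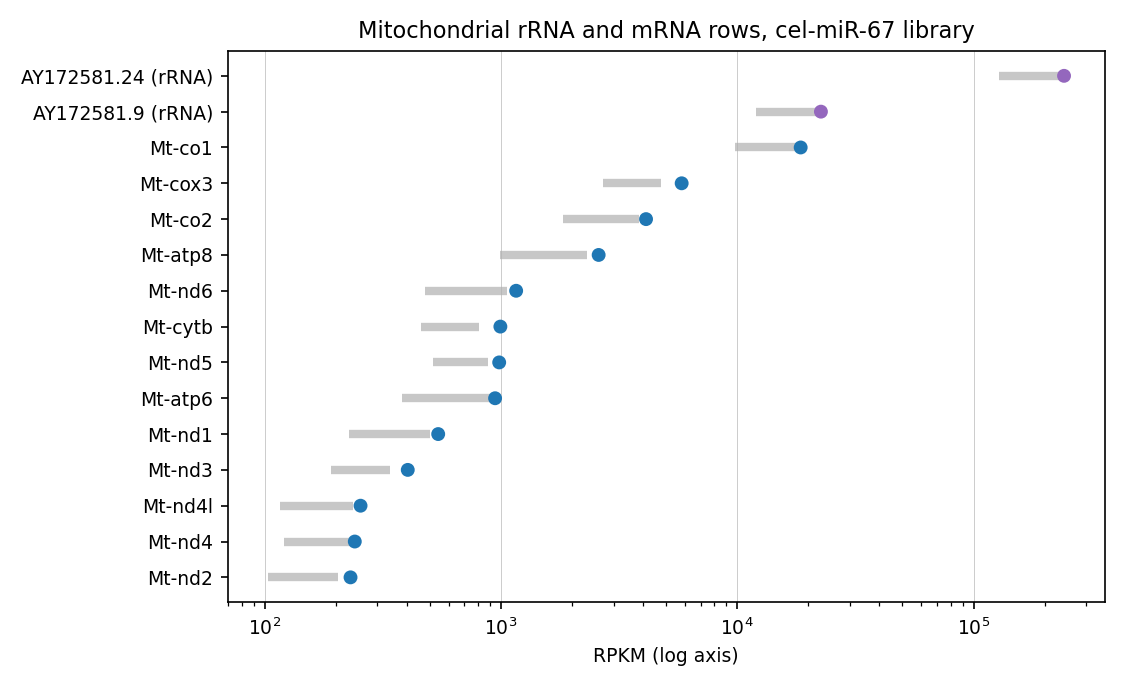
RPKM on a log axis of the 2 mitochondrial rRNAs (purple) and the 13 mitochondrial mRNAs (blue) in the cel-miR-67 library, with the range of the other 6 libraries as grey bars. The mRNAs run from 18554 RPKM for Mt-co1 to 231 RPKM for Mt-nd2.

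In each complex that has subunits of both genomes, the median of the nuclear genes lay below that of the mitochondrial mRNAs, and single genes overlapped only in complex I and ATP synthase. The highest entry of each gene was taken. Nuclear medians were 99.9 RPKM over 31 genes of complex I, 181 over 4 genes of complex II, 212 over 8 genes of complex III, 290 over 14 genes of complex IV and 304 over 15 genes of ATP synthase. The highest of these 72 nuclear genes was Atp5b (1688 RPKM) and the lowest Cox4i2, the lung form of cytochrome oxidase subunit 4, at 0.836 RPKM against 483 RPKM for the common form Cox4i1. Muscle forms were present beside the general ones. Cox6a2, the heart and muscle form, made up 64.0% of the Cox6a pair (45.9% to 57.4% in the other 6 libraries, where it led in 3), whereas Cox8b, the heart and muscle form of another subunit, made up 11.04% of its pair. Slc25a4, the adenine nucleotide carrier of heart and muscle, took 73.6% of its pair with Slc25a5. Cycs, the electron carrier cytochrome c, is listed more than once, and its highest entry stood at 945 RPKM over 318 bases.

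Both cardiac myosin heavy chains were expressed at close levels. Myh6, the alpha chain of the adult rodent ventricle, stood at 1307 RPKM (1301 to 1313), and Myh7, the beta chain of the fetal ventricle, at 1226 RPKM (1220 to 1232). Myh6 thus held 51.6% of the pair, a ratio of 1.07 (1.06 to 1.07 by counting error). Across the other 6 libraries the Myh6 share ran from 33.6% to 61.0%, and it led in 3 of them, so which of the pair leads is within the spread between libraries. Other sarcomeric heavy chains were low: Myh7b stood at 3.86 RPKM, the embryonic Myh3 at 0.541 RPKM, and Myh8, the perinatal skeletal chain, at 0.0199 RPKM. The non-muscle chains Myh9 and Myh10 stood at 152 and 54.7 RPKM and the smooth muscle chain Myh11 at 13.8 RPKM.

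Light chains were of the ventricular kind. Myl2 and Myl3, the ventricular regulatory and essential chains, made up 82.5% and 16.3% of the striated muscle light chains, and the atrial chains Myl4 (83.2 RPKM) and Myl7 (18.8 RPKM) 1.00% and 0.227%. Per length, Myl2 exceeded Myl7 363-fold (341 to 387). The gene lengths behind these values, 480 bases for Myl2 and 2328 bases for Myl7, were worked out from the values and widen that ratio relative to the reads. Myl9 and Myl12a, light chains of smooth muscle and non-muscle myosin, were also high at 1075 and 708 RPKM.

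Cardiac actin outweighed the other muscle actins: Actc1 held 90.01%, the skeletal Acta1 (587 RPKM) 7.47%, the smooth muscle Acta2 (164 RPKM) 2.08% and Actg2 (34.8 RPKM) 0.443%. Actins have near-identical coding sequences, and how the authors counted reads that fit several genes is not given in the sources used here, so the minor shares are uncertain. The cytoplasmic actins Actb and Actg1 stood at 976 and 608 RPKM.

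Troponin I was split between its forms. Tnni1, the slow skeletal form of the fetal heart, stood at 413 RPKM (406 to 419) and Tnni3, the cardiac form, at 351 RPKM (343 to 360), so Tnni1 led 1.17-fold (1.14 to 1.21) with 54.0% of the pair. It also led in each of the other 6 libraries, with 52.3% to 70.1%. By contrast troponin T and troponin C were each a single form: Tnnt2 held 99.99% of troponin T and Tnnc1 99.99% of troponin C. Tnnt3, the fast skeletal troponin T, had no read (interval up to 0.120 RPKM), where 3 reads would give 0.0977 RPKM. Thin filament tropomyosin was led by Tpm1 (512 RPKM, 48.2%), the main striated muscle gene, ahead of Tpm4 (317 RPKM), Tpm2 (198 RPKM) and Tpm3 (35.3 RPKM).

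Of 27 listed genes of the sarcomere scaffold, 21 (77.8%) stood at 1 RPKM or more, near the 74.2% of all nuclear protein-coding genes. At 100 RPKM or more there were 10 (37.0%), beside 3.25% of all nuclear protein-coding genes. Ttn (titin), Nebl, Mybpc1 and Myot were not matched by symbol and were not analysed here. After Ankrd1 the highest were Cryab, a small heat shock protein of the Z-disc, at 880 RPKM, Des, the intermediate filament desmin, at 641 RPKM, and Csrp3, the Z-disc protein MLP, at 437 RPKM. Mybpc3, cardiac myosin binding protein C, stood at 364 RPKM, and Actn2, the alpha-actinin of the Z-disc, at 230 RPKM. Myom1 (112 RPKM) held 76.3% of the M-band myomesins over Myom2 (33.99 RPKM). The skeletal muscle genes Neb, Myoz1 and Actn3 were at 0.0626, 0.0743 and 0.0153 RPKM, with 1 read behind Actn3.

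**Figure D3:**
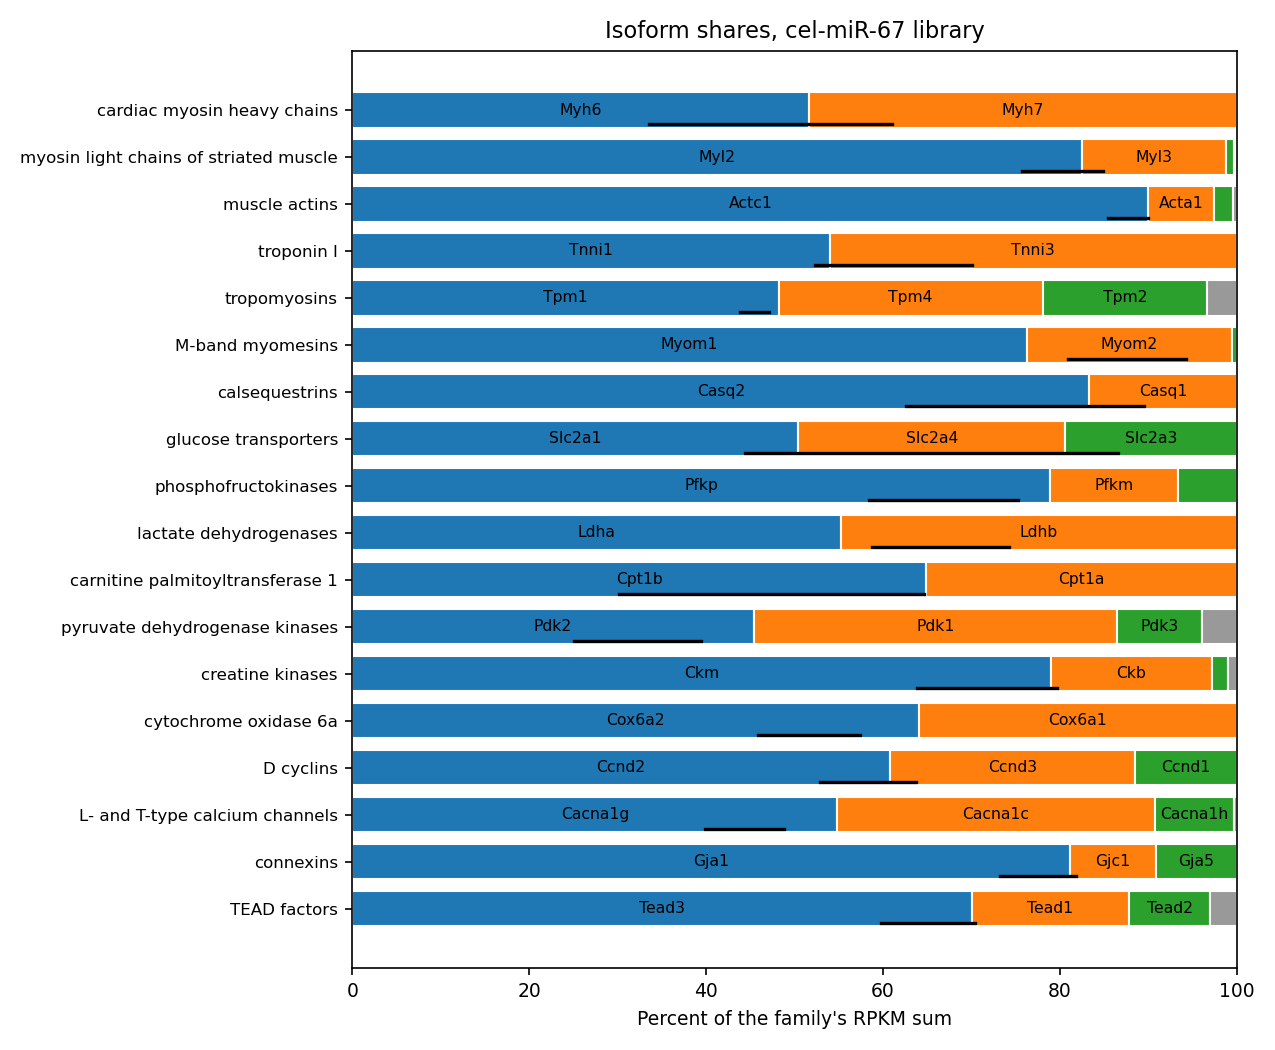
Share of each isoform in the summed RPKM of its family (percent) for 18 families in the cel-miR-67 library, leading isoform in blue, next ones in orange, green and grey. Black lines give the range of the leading isoform's share in the other 6 libraries. Myh6 and Tnni1 hold 51.6% and 54.0% of their pairs, Actc1 90.01% of the muscle actins.

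Calcium release and uptake genes of the cardiac kind dominated their families. Atp2a2, the calcium pump SERCA2 that refills the sarcoplasmic reticulum, stood at 422 RPKM and held 99.8% of the pumps. Pln, its inhibitor phospholamban, stood at 373.5 RPKM and the atrial inhibitor Sln at 19.1 RPKM. Ryr2, the cardiac calcium release channel, reached 88.0 RPKM (95.7% of ryanodine receptors), and Casq2, the cardiac calcium store calsequestrin, 636 RPKM. The skeletal calsequestrin Casq1 was nevertheless listed at 127 RPKM, 16.7% of the pair. Of the 20 listed genes of this group 16 (80.0%) reached 1 RPKM, near the 74.2% of all nuclear protein-coding genes.

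At the cell membrane the sodium-calcium exchanger Slc8a1 was the highest of 28 listed channels and transporters, at 318 RPKM. The pore subunits of channels were far lower. Cacna1g, a T-type calcium channel of fetal and pacemaker cells, stood at 11.9 RPKM and Cacna1c, the L-type channel of the working myocyte, at 7.82 RPKM, a ratio of 1.53 (1.43 to 1.63), with the same leader in 5 of the other 6 libraries. Kcnj2, Kcnq1 and Kcnh2, potassium channels that repolarize or hold the membrane at rest, stood at 7.41, 9.15 and 6.22 RPKM. Kcnd3 and its partner Kcnip2, which contribute to the transient outward current of the mature ventricle, stood at 0.734 and 0.106 RPKM. Kcnd2, also chosen for the channel list, was not matched by symbol and was not analysed here. Among gap junction genes Gja1, connexin 43 of the ventricle, reached 71.7 RPKM and 81.1% of the 3 connexins compared. All 13 listed intercalated disc genes were above 1 RPKM, beside 74.2% of all nuclear protein-coding genes. They ran from Vcl at 163 to Gja3 at 3.16 RPKM.

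Cardiac transcription factors were listed at moderate levels, 17 of 21 (81.0%) at 1 RPKM or more, near the 74.2% of all nuclear protein-coding genes. Their median was 6.46 RPKM, beside 4.71 over all nuclear protein-coding genes. The highest were Tbx20 (48.9 RPKM), Hand2 (44.9 RPKM), Mef2a (36.6 RPKM), Nkx2-5 (29.2 RPKM), Srf (28.6 RPKM) and Gata4 (23.1 RPKM), all regulators of cardiac gene programmes. Hand1 and the progenitor factor Isl1 stood at 0.0834 and 0.0180 RPKM. Natriuretic peptides, hormones released by stretched or fetal myocytes, were abundant: Nppa at 1860 RPKM and Nppb at 636 RPKM together made up 0.801% of the nuclear protein-coding sum. The natriuretic peptide receptors Npr1, Npr2 and Npr3 stood at 1.41, 1.48 and 6.39 RPKM. Corin, the protease that activates the atrial peptide, stood at 2.58 RPKM.

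Of 21 listed genes of glucose entry and glycolysis, 20 (95.2%) reached 1 RPKM and 9 (42.9%) reached 100. Over all nuclear protein-coding genes these shares were 74.2% and 3.25%. The median of the list was 32.7 RPKM, beside 4.71 RPKM over all nuclear protein-coding genes. Gapdh (1042 RPKM), Aldoa (488 RPKM) and Eno1 (482 RPKM) led. Glucose transporters were Slc2a1, the form of fetal and proliferating cells, at 21.6 RPKM and Slc2a4, the insulin-regulated muscle form, at 13.0 RPKM, 50.4% and 30.2% of the 3 compared, all above the median of all genes. Hexokinase was mainly Hk1 (65.0 RPKM, 92.1%) over the muscle form Hk2 (5.56 RPKM). Phosphofructokinase was mainly the platelet form Pfkp (178 RPKM, 78.9%), with the muscle form Pfkm at 32.7 RPKM. Ldha, the muscle-type lactate dehydrogenase, stood at 504 RPKM and Ldhb, the heart-type subunit, at 409 RPKM, 55.2% and 44.8% of the pair.

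Fatty acid genes were expressed from uptake to oxidation, with fewer at 100 RPKM or more than in the glycolysis list. Of 31 listed, 29 (93.5%) reached 1 RPKM and 2 (6.45%) reached 100, beside 74.2% and 3.25% of all nuclear protein-coding genes. Their median was 26.7 RPKM, beside 4.71 RPKM over all nuclear protein-coding genes. Fabp3, the heart fatty acid binding protein, stood at 407 RPKM, and Hadhb and Hadha, the subunits of the trifunctional enzyme of beta-oxidation, at 122 and 78.4 RPKM. The uptake protein Cd36 stood at 35.8 RPKM. At the entry to mitochondria, Cpt1b, the muscle form of carnitine palmitoyltransferase 1, reached 11.1 RPKM and Cpt1a, the liver and fetal form, 6.02 RPKM. Cpt1b led 1.85-fold (1.67 to 2.05) here but led in only 3 of the other 6 libraries. The transporters Slc27a1 and Slc27a6 stood at 1.36 and 0.0438 RPKM.

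The citric acid cycle had a median of 113 RPKM over 17 genes, above those of glycolysis and of fatty acid use. All 17 stood above 10 RPKM, beside 32.2% of all nuclear protein-coding genes. Mdh1, cytosolic malate dehydrogenase, led at 463 RPKM, and Cs, citrate synthase, stood at 147 RPKM. Ogdh, a subunit of the 2-oxoglutarate dehydrogenase complex, was the lowest at 12.3 RPKM. Pyruvate dehydrogenase kinases, which hold back the entry of pyruvate, were led by Pdk2 at 22.8 and Pdk1 at 20.6 RPKM, which did not differ beyond counting error (ratio 1.105, 0.992 to 1.23), and Pdk2 led in 0 of the other 6 libraries. Pdk4, the kinase linked to fatty acid use, stood at 1.96 RPKM. Among energy buffers, myoglobin (Mb) stood at 252 RPKM and the muscle creatine kinase Ckm at 150 RPKM, 78.9% of its family, over the brain form Ckb at 34.6 RPKM. The mitochondrial form Ckmt2 was at 3.52 RPKM.

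Of 20 regulators of metabolism 17 reached 1 RPKM and 6 reached 10 RPKM, beside 74.2% and 32.2% of all nuclear protein-coding genes. Their median was 4.19 RPKM, below the 4.71 RPKM over all nuclear protein-coding genes. Prkaa2, the muscle form of the AMP-activated kinase catalytic subunit, was highest at 52.2 RPKM. Tfam, the packaging factor of mitochondrial DNA, stood at 25.97 RPKM and Ppargc1a, the coactivator of mitochondrial biogenesis, at 6.27 RPKM. Among the fatty acid sensing receptors Ppara stood at 2.59, Ppard at 0.990 and Pparg at 0.308 RPKM.

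The lists of G1, S phase and G2 and M phase each had a median above that of all nuclear protein-coding genes. All 32 listed genes of G2 and M phase reached 1 RPKM, with a median of 9.59 RPKM and a range of 1.61 to 34.8 RPKM, beside 74.2% and 4.71 RPKM over nuclear protein-coding genes. Prc1, which bundles the spindle midzone, was the highest. Top2a, the topoisomerase of chromosome separation, stood at 29.8 RPKM (28.9 to 30.7), Cdk1, the kinase that starts mitosis, at 23.7 RPKM, and the proliferation marker Mki67 at 21.4 RPKM. Ccnb1, cyclin B1, stood at 10.4 RPKM, Aurkb, the kinase of chromosome segregation and cytokinesis, at 4.18 RPKM, and Plk1, another mitotic kinase, at 5.36 RPKM. These are levels of a pool of cells and do not say in which cells the RNA lay: in a bulk library, fewer cells of a type and less RNA per cell cannot be told apart.

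In S phase, 25 of 26 listed genes (96.2%) reached 1 RPKM, beside 74.2% of all nuclear protein-coding genes. Their median was 11.6 RPKM, beside 4.71 RPKM over all nuclear protein-coding genes. Rrm1, a subunit of ribonucleotide reductase, led at 89.2 RPKM, Pcna, the sliding clamp of DNA polymerase, stood at 60.5 RPKM, and the replicative helicase subunits Mcm2 to Mcm7 lay between 12.8 and 28.4 RPKM. Cdc45 was the lowest, at 0.966 RPKM. Of the D cyclins, which drive G1, Ccnd2 stood at 98.5 RPKM (60.8% of the 3), Ccnd3 at 45.0 and Ccnd1 at 18.6 RPKM, beside their kinase partner Cdk4 at 98.3 RPKM. All 19 listed cell cycle inhibitors and retinoblastoma family members also reached 1 RPKM, with a median of 6.87 RPKM. At 10 RPKM or more there were 7 (36.8%), near the 32.2% of all nuclear protein-coding genes. Gadd45g, a growth arrest protein, led at 79.1 RPKM. The cyclin kinase inhibitors Cdkn1b (p27) and Cdkn1a (p21) stood at 16.8 and 9.61 RPKM, and Cdkn2a at 1.42 RPKM. Together the S phase genes made up 0.147% and the G2 and M phase genes 0.115% of the nuclear protein-coding RPKM sum.

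**Figure D4:**
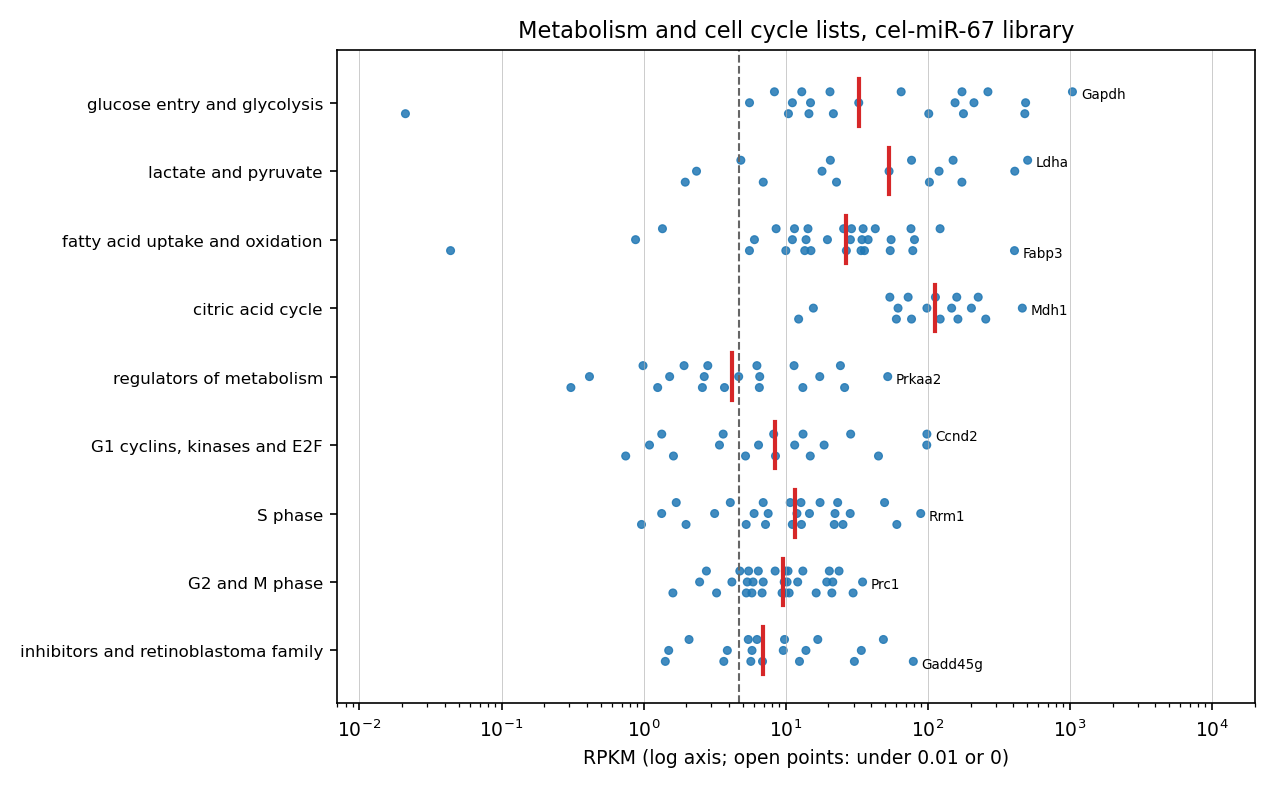
RPKM on a log axis of every listed member of 9 metabolic and cell cycle lists in the cel-miR-67 library. Red lines are list medians, the dashed line the median of all nuclear protein-coding genes (4.71 RPKM). Among these 9 lists the citric acid cycle has the highest median, 113 RPKM, and the G2 and M phase list lies between 1.61 and 34.8 RPKM.

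The label of the cells was set against marker lists, of which only members matched by symbol are counted. Over all nuclear protein-coding genes 74.2% reached 1 RPKM. All 10 ventricular markers reached 1 RPKM, with a median of 25.1 RPKM, from Myl2 down to Mpped2 at 1.28 RPKM. The ventricular transcription factors Irx4 and Hey2 stood at 8.47 and 3.63 RPKM. Of 13 atrial markers 9 (69.2%) reached 1 RPKM, near that share, with a median of 3.01 RPKM. At 10 RPKM or more there were 6 of the 13 atrial and 5 of the 10 ventricular markers, beside 32.2% of all nuclear protein-coding genes. Apart from Nppa, which fetal ventricles also express, the highest atrial marker was Myl4 at 83.2 RPKM. The atrial genes Sln and Myl7 stood at 19.1 and 18.8 RPKM, and the atrial regulators Nr2f1 and Nr2f2 at 0.236 and 0.875 RPKM. Of 11 conduction and pacemaker markers 6 (54.5%) reached 1 RPKM, with a median of 2.49 RPKM. The highest was the T-type channel Cacna1g at 11.9 RPKM, followed by the connexin genes Gjc1 and Gja5 at 8.58 and 8.12 RPKM. Hcn4, the pacemaker channel, stood at 3.47 RPKM, and Shox2, Tbx3 and Isl1, factors of the sinus node, at 0.199, 0.262 and 0.0180 RPKM.

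Fibroblast markers were well above the background. Of 20, 19 reached 1 RPKM and 6 reached 100, with a median of 41.5 RPKM and a share of 0.987% of the nuclear protein-coding sum. Sparc, a matrix-binding glycoprotein, stood at 808 RPKM, Vim, the mesenchymal intermediate filament, at 587 RPKM, and the collagens Col3a1 and Col1a2 at 327 and 284 RPKM. Postn, the matrix protein periostin, stood at 107 RPKM. Tcf21, a factor of cardiac fibroblasts, stood at 15.9 RPKM, the matrix proteoglycan gene Dcn at 16.04 RPKM and Pdgfra, a growth factor receptor of fibroblasts, at 5.55 RPKM. How much of these levels came from fibroblasts in the culture was not tested.

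All 12 smooth muscle markers reached 1 RPKM, with a median of 18.2 RPKM. The highest, Des (641 RPKM), Tagln (478 RPKM) and Acta2 (164 RPKM), are also made by immature cardiomyocytes or by activated fibroblasts. Myh11, the defining heavy chain of mature smooth muscle, stood at 13.8 RPKM. Of 9 pericyte markers 6 (66.7%) reached 1 RPKM, beside 74.2% of all nuclear protein-coding genes, with a median of 2.15 RPKM. The adhesion molecule gene Mcam led at 119 RPKM, followed by Abcc9, a subunit of a potassium channel, the proteoglycan gene Cspg4 and the growth factor receptor Pdgfrb at 16.6, 15.2 and 10.5 RPKM. Rgs5 and Higd1b, which are more restricted to pericytes, stood at 1.45 and 0.240 RPKM. Of 13 epicardial markers 11 (84.6%) reached 1 RPKM, with a median of 2.91 RPKM. Msln, mesothelin, led at 11.03 RPKM, and the epicardial factor Wt1 stood at 1.14 RPKM.

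Of 17 endothelial markers, 7 (41.2%) reached 1 RPKM, beside 74.2% of all nuclear protein-coding genes. Their median was 0.522 RPKM, below the 25th percentile of all nuclear protein-coding genes (0.930 RPKM). Eng, a co-receptor that other mesenchymal cells also carry, was the highest at 15.6 RPKM. The defining genes Cdh5 (VE-cadherin), Tie1 and Vwf stood at 0.402, 0.522 and 0.225 RPKM. Cldn5 had no read, where 3 reads would give 0.0928 RPKM. Of 16 macrophage markers, 10 (62.5%) reached 1 RPKM, with a median of 1.64 RPKM, between that percentile and the median of all genes. Lyz2, a lysozyme, led at 6.93 RPKM, the growth factor receptor Csf1r stood at 2.76 RPKM and Ptprc (CD45), carried by all white blood cells, at 0.987 RPKM. The globin genes Hbb and Hba1 stood at 3.34 and 2.46 RPKM, and the other erythroid genes outside the globins were below 1 RPKM. Glial and neuronal genes were low too. Of 14 on the list 9 were matched by symbol, and 2 of these reached 1 RPKM, led by the tubulin gene Tubb3 at 6.78 RPKM. Of the 11 genes of the lymphocyte list only Cd4 (1.06 RPKM) and Cd8a (0.477 RPKM) were matched by symbol and analysed here. The skeletal regulators of the list (Myod1, Myf5, Myog and others) were not matched by symbol and were not analysed here.

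**Figure D5:**
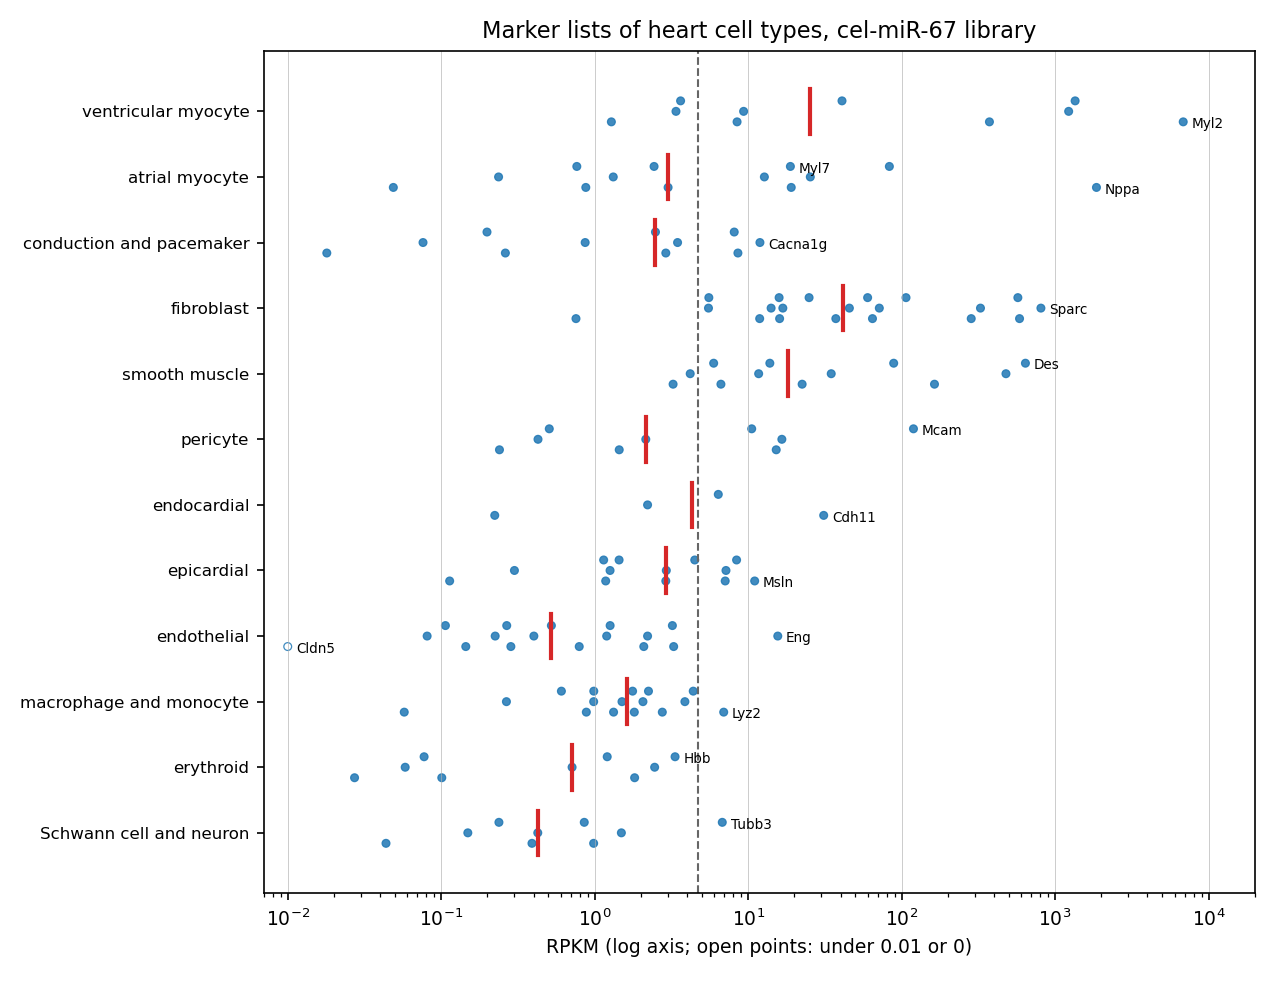
RPKM on a log axis of every listed member of the 12 named marker lists in the cel-miR-67 library. Red lines are list medians, the dashed line the median of all nuclear protein-coding genes, and the open point is Cldn5, which had no read. Medians of these 12 run from 41.5 RPKM for fibroblast markers to 0.426 RPKM for Schwann cell and neuron markers, with 25.1 RPKM for ventricular and 0.522 RPKM for endothelial ones.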

How the data were processed

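Ventricular cardiomyocytes of newborn rats were profiled by TruSeq mRNA sequencing, per the labels' protocols. The authors deposited RPKM per gene, and a ratio of each library to cel-miR-67; the deposited ratio values were not used. The submitters' processing notes name STAR 2.7, edgeR and Rnor_6.0, without role or order. The read counter, annotation, strand setting, filter and handling of reads that fit several genes were not given in the sources used here. Values in the library's own file equal its column of the series table in all 17141 rows.

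Reads were recovered from RPKM by a search over row lengths and sizes of the 7 libraries for values that make each read number whole, within 0.002 reads, rising to 0.05 for many reads; this succeeded for 100% of rows. On 17141 simulated rows 99.6% had every read number recovered and 96.7% the exact length. The library size in the RPKM is 22674410, and the listed reads are 109.5% of it, so the size is not their sum. Row lengths are those found in this search, with a median of 2227 bases (40 to 33307).

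Levels, ranks, shares and medians were computed with Python 3.11.15, numpy 2.4.6, pandas 2.3.3 and scipy 1.17.1, and figures drawn with matplotlib 3.10.9. Groups come from the labels. The 47 lists hold 677 genes, of which 605 were matched by symbol (5 by an older one; the highest row where several share a symbol, 7 genes); the lists, families and named genes were chosen with earlier results of these data known. Named genes are list members (the highest, the defining ones, those with no read), the 30 highest nuclear protein-coding genes, the highest of other gene types and the mitochondrial rows. Alternatives varied the detection limit, the rows and unit of the mitochondrial share, a pseudocount, the exclusion of low values and the scale.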

Additional observations from a re-analysis of the deposited data

How the results depend on the processing

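With 1 library no replicate could be left out, and no paired analysis was possible because every group has 1 sample. The number of genes at or above the limit was 12315 at 1 RPKM, 13533 at 0.5 RPKM and 7833 at 5 RPKM. The mitochondrial share of the RPKM sum fell from 53.1% to 26.4% without the mitochondrial rRNA rows and was 41.0% of reads. Actc1, Myl2 and Nppa made up 2.27%, 2.20% and 0.597% of the nuclear protein-coding sum and 0.971%, 0.939% and 0.256% of the sum over all rows; ranks do not depend on that scale. At a limit of 5 RPKM, 1 endothelial and 1 macrophage marker reached the limit, and the endothelial median was 2.21 RPKM over the members at 1 RPKM or more. Adding 1 RPKM to every isoform cannot change which isoform leads. It moved 15 of 35 leading shares beyond counting error, and none by more than 14.5 percentage points. Leaving out isoforms under 1 RPKM moved 6 of 35 leading shares beyond counting error, among them Ppara from 66.6% to 100.0%. Levels of very short rows, and of rows with a near-identical copy, are the least certain: 20 rows with at least 100 reads had the same reads as another row in all libraries.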

Other observations

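The list of chaperones and stress proteins of the endoplasmic reticulum stood above the level of all genes. All 13 listed genes reached 1 RPKM and 10 (76.9%) reached 10 RPKM, beside 74.2% and 32.2% of nuclear protein-coding genes. Their median was 36.2 RPKM, beside 4.71 RPKM. Whether the cells were stressed was not tested. Hspa5, the main chaperone of that compartment, stood at 585 RPKM, Hsp90b1, another chaperone, at 209 RPKM and the stress transcription factor Atf4 at 170 RPKM. Interferon-linked genes were lower, with 16 of 21 at 1 RPKM or more and a median of 4.35 RPKM, led by Irf9 (12.3 RPKM), Irf7 (11.1 RPKM) and Usp18 (10.6 RPKM). Ddx58, a sensor of foreign RNA, stood at 5.875 RPKM. The interferon count, 76.2%, lies near the 74.2% of all nuclear protein-coding genes. Of 14 immediate early genes, 11 (78.6%) reached 1 RPKM, also near that share, led by Ier3 at 24.9 RPKM, while Fos stood at 8.52 and Egr1 at 1.51 RPKM.

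Of 37 listed receptors for growth factors and hormones, 30 (81.1%) reached 1 RPKM, near the 74.2% of all nuclear protein-coding genes. Bmpr1a, a receptor of bone morphogenetic proteins, led at 81.7 RPKM, followed by Igf2r at 77.8, the muscarinic receptor Chrm2 at 58.4 and Il6st, the shared receptor subunit of the interleukin 6 family, at 54.0 RPKM. Erbb2 and Erbb4, the neuregulin receptors of cardiomyocytes, stood at 5.65 and 5.73 RPKM and Erbb3 at 0.201 RPKM. Adrb1 was the higher of the beta adrenergic receptors, at 2.99 RPKM and 72.3% of the pair, and Thra the main thyroid hormone receptor, at 9.03 RPKM and 96.6%. In the Hippo pathway, which limits organ size, 21 of 22 listed genes reached 1 RPKM. The effectors Yap1 and Wwtr1 stood at 12.1 and 20.8 RPKM, Tead3 held 70.0% of the TEAD factors, and the target genes Ccn2 and Ccn1 (listed as Ctgf and Cyr61) stood at 103 and 56.3 RPKM.

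Short RNAs also appear in this mRNA library. Among miscellaneous RNAs, 2 rows named LOC102723236 stood at 3822 and 3821 RPKM over 300 bases, with nearly the same reads (26001 and 25990), and the row named 7SK at 2472 RPKM. Of 241 rows typed as miRNA, 179 reached 1 RPKM, beside 12315 of the 17141 rows of all types. AABR07015042.1 led them at 1535 RPKM over 49 bases, and the RNase P RNA reached 686 RPKM. Such rows rest on few bases, and whether reads of a longer overlapping transcript were counted to them was not tested.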
